A study of Saccharomyces cerevisiae with 18 samples.

Results

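The 10 genes described here encode yeast enzymes of base excision and strand-break end repair: *APN1*, *APN2*, *NTG1*, *NTG2*, *OGG1*, *UNG1*, *MAG1*, *RAD27*, *TPP1* and *CDC9*. They were chosen by name, as the genes whose own probe set carries that single symbol in the array annotation, and make up 10 of the 5656 genes measured. Each is represented by 1 probe set. A second probe set that matches *NTG1* together with another gene was left out. Their transcripts were followed in 18 cultures on Affymetrix YG-S98 arrays, in 6 groups of 3 biological replicates. One group received 210 Gy of γ-radiation and was set against a mock-irradiated group. The enediyne cultures, exposed for 15 min, had calicheamicin at 1 nM, esperamicin A1 at 3 nM or neocarzinostatin at 4 nM, with methanol vehicle as their control. All cultures were of strain DBY747, a haploid of mating type a with mutant alleles of *HIS3*, *LEU2*, *URA3* and *TRP1*, grown to mid-log phase in YPD. The study chose doses of each agent that gave a similar, low level of killing, so the doses in nM differ between the enediynes. Intensities are the authors' RMA values on a linear scale, and fold changes are differences of their log2. Calls required at least a 1.5-fold change together with an adjusted p no higher than 0.10.

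Base excision repair removes a damaged base and rebuilds the strand. A DNA glycosylase cuts the bond between base and sugar, an AP endonuclease cuts the strand at the abasic site, and the gap is filled and sealed by a DNA polymerase and a ligase. The AP endonucleases and a 3′-phosphatase also clean the ends of strand breaks, since oxidized sugars leave blocked 3′ ends that no polymerase can extend. Enediynes oxidize deoxyribose, whereas γ-radiation damages both sugars and bases.

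The array medians were 15.3 to 16.8. All 4 marker genes of mating type a lay above them on every array, with *MFA1* and *MFA2* between 695 and 1819, *STE2* between 35.9 and 113 and *BAR1* between 34.3 and 97.5. Of the 4 markers of mating type α, *STE3*, *MF(ALPHA)1* and *MF(ALPHA)2* lay between 7.67 and 22.1, but *SAG1*, at 37.1 to 61.7, was also above the medians. The ribonucleotide reductase gene *RNR3*, a known target of the DNA damage checkpoint, was 12.4-fold higher with γ-radiation (adjusted p = 1.64e-06 from limma). It was not called for an enediyne, at 1.15-fold with calicheamicin (adjusted p = 0.951 from limma), 1.60-fold under esperamicin A1 (0.999) and 2.03-fold under neocarzinostatin (0.496). The 5′ minus 3′ difference of the actin control probe sets, a sign of RNA quality, was -3.59 in methanol vehicle replicate 1 and -2.34 to -0.69 on the other arrays. On the esperamicin A1 arrays it was -2.34 to -1.53. Of the 10 genes, *APN2* and *TPP1* lay below the array median on all 18 arrays, *MAG1* on 16, and *NTG1* and *OGG1* on 14 each. Intensities were not tested against background.

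Of the 10 repair genes, 0 were called for γ-radiation, against 0.902% of all genes. *OGG1*, *NTG1*, *CDC9*, *UNG1* and *RAD27* had fold changes of 1.28 to 1.39 and were higher in the irradiated culture of every same-numbered pair. *APN1*, *TPP1*, *MAG1*, *APN2* and *NTG2* had fold changes of 0.946 to 1.11. In a bulk culture, a change in the share of cells at a cell cycle stage and a change in transcripts per cell cannot be told apart.

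**Figure D1:**
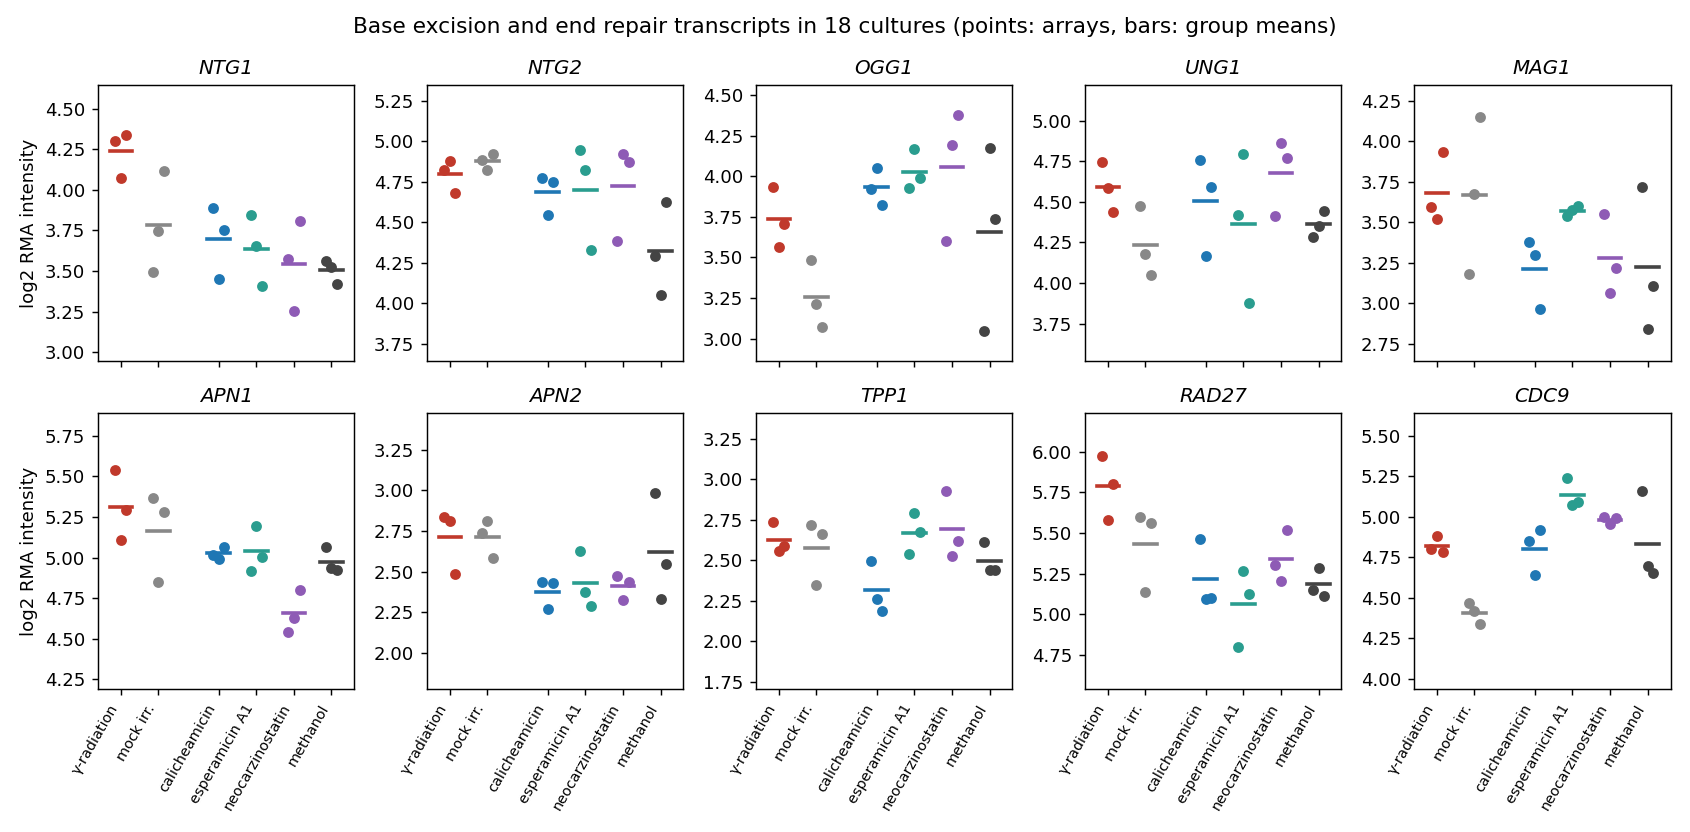
The log2 RMA intensity of each of the 10 genes (y axis, every panel spanning the same number of log2 units) in the 6 groups (x axis), with 1 point per array and a bar at the group mean. The γ-radiation arrays of *OGG1* and *CDC9* lie above all mock-irradiation arrays, and the neocarzinostatin arrays of *APN1* lie below all methanol arrays.

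Among the glycosylases, *OGG1*, which removes oxidized guanine, had intensities of 15.3, 11.8 and 13.05 after γ-radiation, against 11.2, 9.26 and 8.40 after mock irradiation. The groups did not overlap. Its log2 fold change of 0.48 (95% interval -0.02 to 0.98) did not pass the test (adjusted p = 0.614 from limma). *NTG1* encodes a bifunctional glycosylase for oxidized pyrimidines that acts in the nucleus and in mitochondria. It had 19.7, 16.8 and 20.2 after γ-radiation, against 11.2, 13.4 and 17.3 after mock irradiation, so that the lowest irradiated culture overlapped the highest control. The log2 fold change was 0.45 (0.06 to 0.84, adjusted p = 0.495 from limma), with 0.81 in the first pair of the same number, 0.33 in the second and 0.22 in the third. Its nuclear paralog *NTG2* had 28.3, 29.4 and 25.7 after γ-radiation and 29.5, 28.3 and 30.3 after mock irradiation, for a log2 ratio of -0.08 (-0.47 to 0.31). *UNG1*, which encodes the uracil glycosylase, had 26.8, 24.04 and 21.7 after γ-radiation and 22.2, 18.1 and 16.5 after mock irradiation, and was higher in 3 of 3 pairs (0.36, -0.09 to 0.80, adjusted p = 0.697 from limma). *MAG1* encodes the glycosylase for alkylated bases, and its transcript is known to respond to alkylating agents. Its log2 fold change was 0.01 (-0.49 to 0.52), with mock-irradiation arrays that spread from 9.09 to 17.8 and irradiated arrays between 11.5 and 15.3.

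Abasic sites are opened, and 3′ ends cleaned, by a further set of enzymes. *APN1*, which encodes the major AP endonuclease and 3′-diesterase of yeast, had 46.5, 34.5 and 39.2 after γ-radiation and 41.3, 28.9 and 38.8 after mock irradiation. The groups overlapped, and the log2 fold change was 0.15 (-0.18 to 0.48, adjusted p = 0.855 from limma). The second AP endonuclease gene, *APN2*, had a fold change of 0.9999 (0.786 to 1.27), and the 3′-phosphatase gene *TPP1* had 1.04 (0.833 to 1.29). Both of these genes were dim, between 4.55 and 7.90 over all 18 arrays, and their level against background was not tested.

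Flap removal and ligation are shared with DNA replication. *CDC9*, which encodes DNA ligase I and had the smallest p of the 10, had 27.9, 29.4 and 27.5 after γ-radiation, against 22.1, 21.4 and 20.2 after mock irradiation. Every irradiated culture lay above every control. The log2 fold change was 0.41 (0.11 to 0.71, adjusted p = 0.367 from limma), and the same-numbered pairs gave 0.33, 0.46 and 0.44. *RAD27* encodes the flap endonuclease that trims displaced 5′ ends in long-patch repair and Okazaki fragment maturation. It had 63.0, 47.9 and 55.8 after γ-radiation, against 48.4, 35.2 and 47.3 after mock irradiation. The second irradiated culture overlapped the controls, yet each pair of the same number differed in the same direction (0.38, 0.44 and 0.24), with a log2 fold change of 0.35 (-0.01 to 0.72, adjusted p = 0.604 from limma).

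The median log2 fold change of the 10 genes with γ-radiation was 0.25, against -0.04 over all genes, and 8 of 10 were above 0, against 43.2% of all genes. Of the 10 genes, 2, *CDC9* and *OGG1*, had irradiated arrays that all lay above the control arrays, against 6.17% of all genes in that direction. Of the 10, 6 were higher in each of the 3 same-numbered pairs, *APN1* being the sixth, against 17.2% of all genes. Without pairing the arrays, an unadjusted p under 0.05 from limma was found for 2 of 10, *CDC9* and *NTG1*, and for 8.70% of all genes. The 95% intervals lay inside a 2-fold change for 10 of 10 genes, against 91.9% of all genes, and inside a 1.5-fold change for 5 of the 10. The upper bound was 1.98-fold for *OGG1* and 1.79-fold for *NTG1*. When same-numbered arrays were paired by a block term in each control family, 129 genes were called for γ-radiation, against 51 without it, and 0 of the 10 were called. *CDC9* then had an adjusted p of 0.171, *NTG1* of 0.234, *OGG1* of 0.253 and *RAD27* of 0.349 from limma. In that order, their unadjusted p with the block was 0.00811, 0.0166, 0.0210 and 0.0427 from limma, and the remaining genes were above 0.05. The share of all genes under 0.05 is not given for that fit. All 95% intervals in the text and figures are from the fit without the block.

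**Figure D2:**
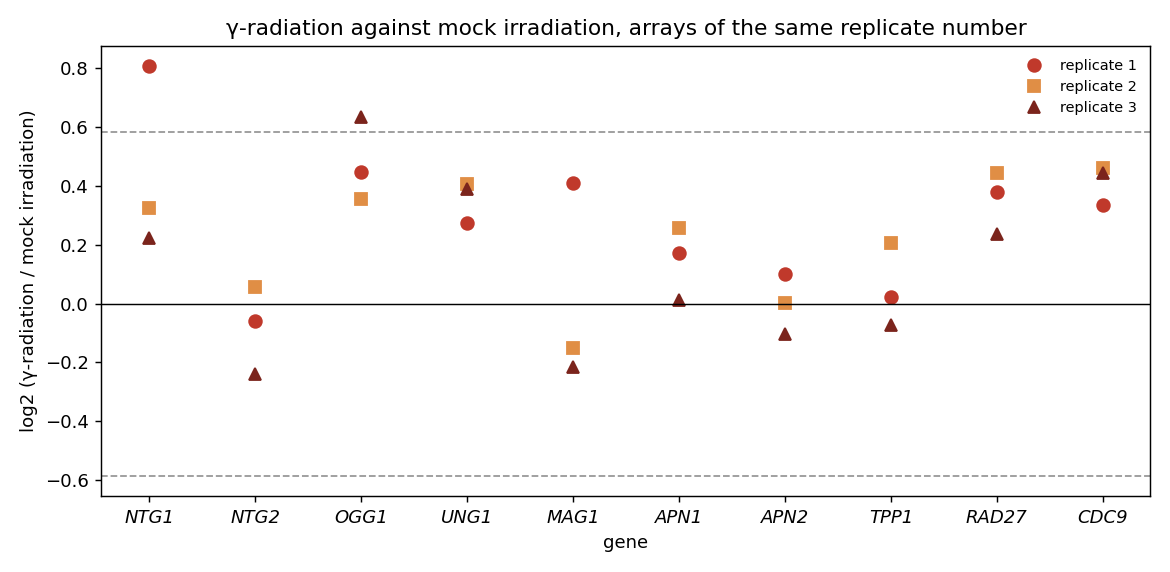
The log2 ratio of γ-radiation to mock irradiation (y axis) for the 3 pairs of arrays with the same replicate number, by gene (x axis). Dashed lines mark 1.5-fold, and 6 genes have all 3 points above 0, with *NTG1* replicate 1 at 0.81 and *OGG1* replicate 3 at 0.63 beyond the line.

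None of the 10 genes was called for an enediyne. The counts from limma were 0 of 10 for calicheamicin (0% of all genes), 0 of 10 for esperamicin A1 (0%) and 0 of 10 for neocarzinostatin (0%). An unadjusted p under 0.05 from limma was found for 0, 0 and 1 of the 10, against 3.89%, 3.66% and 8.20% of all genes. The study's local pooled error test, rewritten here from its description, also called 0 of 10 in each. Over all 5656 genes the rewritten test called 4 genes with calicheamicin, 5 under esperamicin A1 and 8 under neocarzinostatin. The study itself reported more changed genes for each compound at the same thresholds. The median of the 10 log2 fold changes was 0.04 for calicheamicin, against 0.05 over all genes. It was 0.15 for each of esperamicin A1 and neocarzinostatin, against 0.04 over all genes in both cases. The intervals lay inside a 2-fold change for 10 of 10 genes with each compound, against 91.9%, 94.4% and 91.4% of all genes. They lay inside 1.5-fold for 6 of 10 with each. These effects share the methanol vehicle arrays, and the doses in nM differ. No compound was tested directly against another.

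The AP endonucleases and the 3′-phosphatase act on abasic sites and on ends left by sugar damage. *APN1* had 23.3, 24.7 and 27.9 with neocarzinostatin, against 33.4, 30.5 and 30.4 with methanol vehicle. These groups did not overlap, as in 4.07% of all genes in the direction of lower values. The log2 fold change was -0.32 (-0.64 to 0.01, adjusted p = 0.612 from limma), and -0.27 without methanol vehicle replicate 1. With calicheamicin *APN1* had 32.4, 31.8 and 33.5, a log2 fold change of 0.05, and with esperamicin A1 30.3, 36.6 and 32.1, a log2 fold change of 0.07. *APN2* had a log2 fold change of -0.24 for calicheamicin, of -0.19 under esperamicin A1 and of -0.21 under neocarzinostatin. Methanol vehicle replicate 1 was its highest array at 7.90, and without it the values were -0.06, -0.01 and -0.03. *TPP1* had -0.18 with calicheamicin, 0.17 under esperamicin A1 and 0.19 under neocarzinostatin, each with an interval that included 0. No other gene of the 10 had groups that did not overlap with neocarzinostatin. With calicheamicin and esperamicin A1 none had, against 9.28% and 7.07% of all genes in either direction.

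Among the glycosylases, *NTG2* had 3 log2 fold changes between 0.36 and 0.40. Its intensities were 27.3, 23.4 and 26.8 with calicheamicin, 30.8, 28.3 and 20.1 with esperamicin A1 and 20.9, 30.3 and 29.3 with neocarzinostatin, against 19.6, 16.6 and 24.7 with methanol vehicle. All 3 groups overlapped the control. The log2 fold changes were 0.36 (-0.03 to 0.76), 0.38 (-0.02 to 0.77) and 0.40 (0.0080 to 0.80), with adjusted p = 0.923, 0.999 and 0.594 from limma. The methanol arrays of *NTG2* also lay below all its mock-irradiation arrays, which were at 28.3 to 30.3. *OGG1* had 0.28 with calicheamicin, 0.37 under esperamicin A1 and 0.40 under neocarzinostatin. Its methanol arrays spread widely, at 8.28, 18.1 and 13.3, and methanol vehicle replicate 1 was the lowest. Without that array the *OGG1* values were -0.02, 0.07 and 0.10. *UNG1* had fold changes of 1.11, 1.003 and 1.25 with calicheamicin, esperamicin A1 and neocarzinostatin, *NTG1* had 1.14, 1.10 and 1.03, and *MAG1* had 0.994, 1.27 and 1.04. Without methanol vehicle replicate 1, its highest methanol array at 13.2, *MAG1* had a log2 fold change of 0.24 with calicheamicin, 0.60 under esperamicin A1 (adjusted p = 0.497 from limma) and 0.30 under neocarzinostatin.

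*CDC9* had 37.7, 33.6 and 34.1 with esperamicin A1, against 35.7, 25.9 and 25.1 with methanol vehicle, a fold change of 1.23 (0.999 to 1.51, adjusted p = 0.999 from limma). Its log2 fold change was 0.30 there, and it was -0.03 with calicheamicin and 0.15 with neocarzinostatin. Methanol vehicle replicate 1 was the highest control array, and without it the *CDC9* values were 0.13 with calicheamicin, 0.46 with esperamicin A1 (adjusted p = 0.236 from limma) and 0.31 with neocarzinostatin. The esperamicin A1 arrays and methanol vehicle replicate 1, where *CDC9* was high, also had the lowest actin 5′ minus 3′ differences. Calicheamicin replicate 2 was next at -1.34, and its *CDC9* value was low, at 24.9. For the *SPT15* control probe sets, the same difference was -3.75 on that array, below esperamicin A1 replicates 1 and 2 (-3.67 and -3.59). It was -4.19 in esperamicin A1 replicate 3 and -4.40 in methanol vehicle replicate 1. With the actin difference as a covariate, the *CDC9* value went from 0.15 to 0.29 under neocarzinostatin and from -0.03 to 0.09 under calicheamicin. For esperamicin A1 it went from 0.30 to 0.28, and for γ-radiation it stayed at 0.41. Whether RNA quality accounts for the *CDC9* values was not tested. *RAD27* had log2 fold changes of 0.03, -0.12 and 0.16 with calicheamicin, esperamicin A1 and neocarzinostatin.

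**Figure D3:**
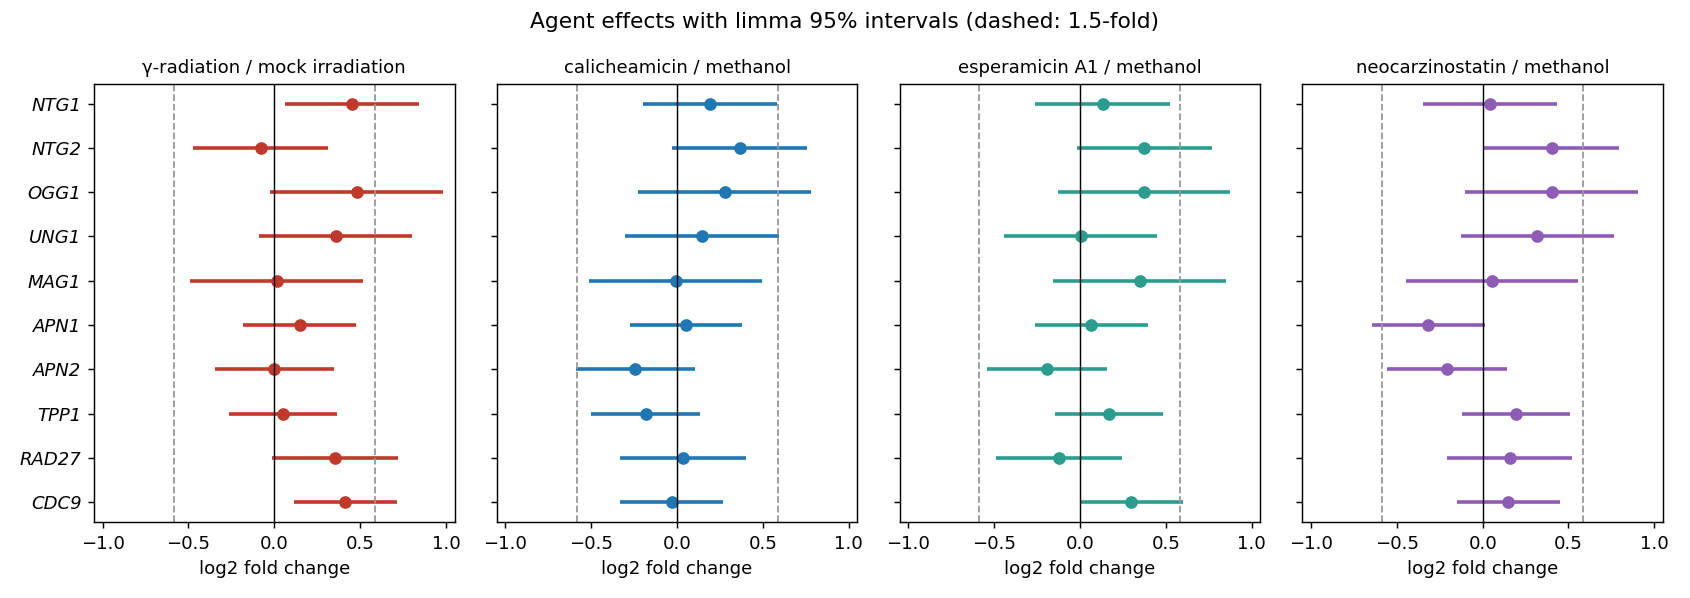
Log2 fold changes of the 10 genes (rows) for each agent over its own control, 1 panel per agent, with limma's 95% intervals as bars. All intervals lie inside a 2-fold change, and those that lie above 0 are *NTG1* and *CDC9* with γ-radiation and *NTG2* with neocarzinostatin.

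For the mean of the enediynes 0 of 10 genes were called (0% of all genes), and the widest value was 0.38 in *NTG2* (adjusted p = 0.817 from limma). The difference between the γ-radiation effect and the mean enediyne effect was called for 0 of 10, against 0.336% of all genes. *NTG2* had a difference of -0.46 (-0.97 to 0.05, adjusted p = 0.697 from limma), *RAD27* had 0.33 (-0.14 to 0.80), *NTG1* had 0.33 (-0.17 to 0.83) and *CDC9* had 0.27 (-0.11 to 0.66). The mean level of *NTG2* was 27.8 with γ-radiation and 25.8 to 26.8 with the enediynes. Its controls lay further apart, at 29.4 after mock irradiation and 20.3 with methanol vehicle. Without methanol vehicle replicate 1 the difference was 0.11 for *CDC9* and 0.43 for *OGG1*, which had 0.13 with all arrays. The 95% interval of this difference lay inside a 1.5-fold change for 1 of the 10, *TPP1*. The study relates expression to the share of double-strand damage, measured both by direct breaks and by all deoxyribose oxidation events. Only the second measure was used here, with the lower end of the study's ratio range for γ-radiation. On it the share is lowest for γ-radiation and highest for calicheamicin, which lies far from the other agents and weighs most in the slope. The slope of the agent effects on that share was called for 0 of 10 genes, against 0.0354% of all genes. It was above 0 for 1 of 10, against 59.0% of all genes. For *CDC9* it was -0.05 log2 units per 10 percentage points (-0.08 to -0.0079, adjusted p = 0.905 from limma). Without methanol vehicle replicate 1, as with the actin covariate, it was above 0 for 3 of 10, and the steepest slope was that of *OGG1* (-0.04). Damage type, agent and control group cannot be told apart in this slope, since each agent has 1 share and γ-radiation has its own control.

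The agents have different controls. Between methanol vehicle and mock irradiation 0 of 10 were called, against 8.68% of all genes, and 2 of 10 had groups that did not overlap, against 23.1% in either direction. *CDC9* was higher in each methanol culture than in any mock-irradiated culture, with a log2 difference of 0.43 (0.13 to 0.72, adjusted p = 0.0822 from limma), short of 1.5-fold. *NTG2* lay between 16.6 and 24.7 with methanol vehicle and between 28.3 and 30.3 after mock irradiation, a log2 difference of -0.55 (-0.95 to -0.16, adjusted p = 0.0852 from limma), also short of 1.5-fold. *NTG2* passed without methanol vehicle replicate 3 (-0.71, adjusted p = 0.0388 from limma), and *OGG1* passed without methanol vehicle replicate 1 (0.70, adjusted p = 0.0696 from limma), where *CDC9* was 0.26 (adjusted p = 0.252). With the actin covariate *CDC9* was also at 0.26 (adjusted p = 0.318 from limma). Vehicle and handling of the irradiated set cannot be told apart here.

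Across the 6 groups, few neighbours in the order of levels were separated. *CDC9* was highest with esperamicin A1 (35.1 ± 2.25, SD, n = 3), above neocarzinostatin (31.6 ± 0.464) without overlap, and lowest after mock irradiation (21.3 ± 0.945), below calicheamicin (28.0 ± 2.77) without overlap. Neocarzinostatin, methanol vehicle, γ-radiation and calicheamicin followed each other with overlapping ranges. *APN1* was lowest with neocarzinostatin (25.3 ± 2.36), below methanol vehicle (31.4 ± 1.72) without overlap, and its other groups overlapped their neighbours. For the remaining 8 genes every pair of neighbouring groups overlapped. *OGG1* had the widest range over the 18 arrays, 1.33 log2 units, and *APN2* the narrowest, 0.71.

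The array-by-array profile of *CDC9*, the gene of the 10 with the smallest p for γ-radiation, was most like those of *VPS13* (r = 0.85), *AIM21* (0.84), *COF1* (0.82), *YDR248C* (0.81) and *AI3* (0.81) over the 18 arrays. Among the 10 genes, the highest correlations were between *NTG1* and *RAD27* (r = 0.67) and between *APN1* and *RAD27* (r = 0.60). *APN1* and *RAD27* are next to each other in the RefSeq gene order of the R64 assembly, and *MAG1* is next to *DDI1*. The lowest correlation was between *APN2* and *OGG1* (r = -0.71). These are descriptions over arrays that share group and RNA quality, and *APN2* and *OGG1* were on opposite sides in methanol vehicle replicate 1.

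Of the 40 further genes that act beside these enzymes, 0 were called for γ-radiation, against 0.902% of all genes. For each enediyne 0 were called, against 0% of all genes. The closest was *POL30*, which encodes the sliding clamp PCNA that holds the polymerase at the gap. It had 147, 107 and 84.6 after γ-radiation, against 63.0, 70.4 and 50.2 after mock irradiation, without overlap. Its log2 fold change of 0.86 (standard error 0.24) had an adjusted p of 0.172 from limma, and it was called when same-numbered arrays were paired by such a block (adjusted p = 0.0141). With the enediynes *POL30* had -0.15, 0.04 and -0.20. The study, with its own test, placed *POL30* among its modulated genes, as induced by γ-radiation and repressed by the enediynes. *POL31*, a subunit of DNA polymerase δ, had 16.3, 16.4 and 14.7 after γ-radiation, against 12.2, 10.5 and 11.7 after mock irradiation (log2 fold change 0.46, adjusted p = 0.372 from limma).

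Of the 16 gap filling and long-patch partners 0 were called in either direction, with a median log2 fold change of 0.05 after γ-radiation. Of the 12 other end processing enzymes, among them the Mre11 complex and the nuclease Rad1-Rad10, 0 were called, with a median of -0.03. Their smallest p for γ-radiation was that of *RAD1* (0.28, adjusted p = 0.760 from limma), followed by *MRE11*, the nuclease of its complex (-0.14, adjusted p = 0.853 from limma). Of the 5 end joining genes 0 were called, with a median of -0.10. *DNL4*, the end joining ligase, had -0.11, and *YKU70*, a subunit of the end-binding Ku complex, had -0.10. The 4 genes of nucleotide pool cleaning and direct reversal gave 0 calls and a median of -0.10. Among them *PCD1*, which hydrolyses oxidized nucleotides, had 0.30 and the dUTPase gene *DUT1* -0.39. The 3 subunits of ribonuclease H2 gave 0 calls and a median of 0.20, with 0.37 in *RNH203* and 0.20 in *RNH201*. The median over all genes was -0.04. When the 25% of genes with the lowest mean were left out, 3 of the 12 other end processing enzymes and 2 of the 5 end joining genes remained. Of the gap filling list 11 of 16 remained, of the nucleotide pool list 3 of 4 and of ribonuclease H2 2 of 3. The level of the dim genes against background was not tested, so 0 calls among them does not show that they were unchanged.

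**Figure D4:**
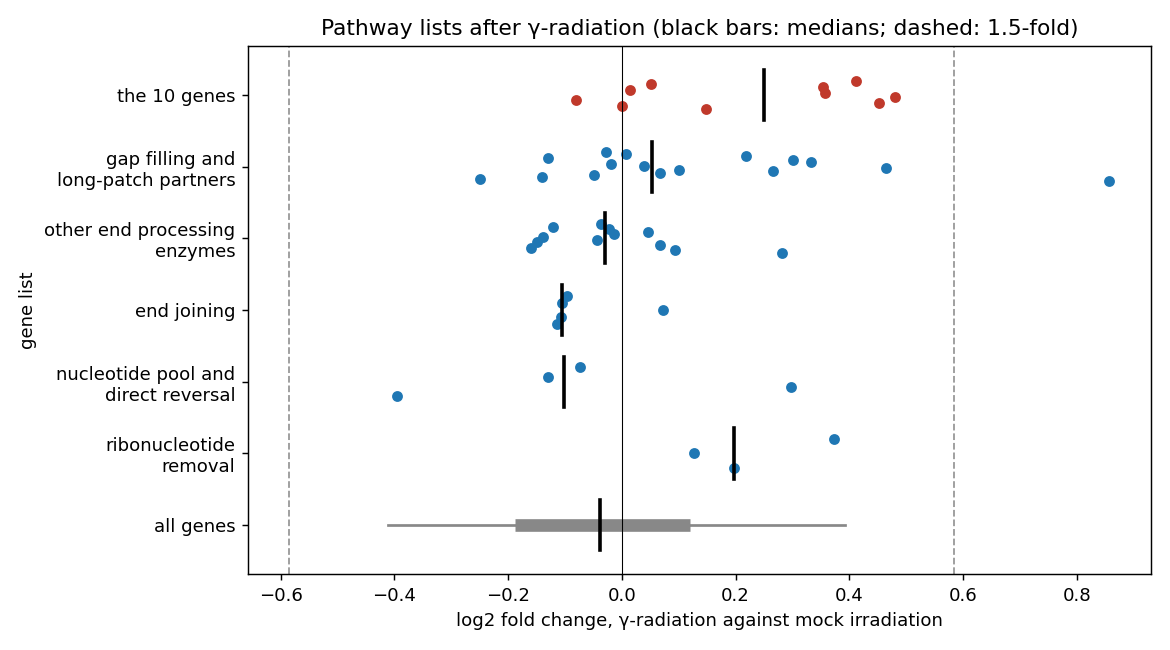
Log2 fold changes for γ-radiation against mock irradiation (x axis) of the 10 genes and of 5 lists of neighbouring functions (rows), with 1 point per gene and a black bar at the median. The bottom row gives the median of all genes with their 25 to 75 (thick) and 5 to 95 (thin) percentiles. *POL30* at 0.86 is the point beyond the dashed line at 1.5-fold.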

How the data were processed

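The deposited values are linear intensity values that the authors computed from 18 Affymetrix YG-S98 arrays by RMA (background correction, quantile normalization and summary of probes; version not given in the sources used here). Values are relative fluorescence, and the number of arrays, 3 per group, limits the precision. Of 9335 probe sets, 6504 carry 1 gene symbol, 328 several, 2443 none, and 60 are controls. The probe set with the highest mean represented each of 5656 genes. The log2 of the intensities was fitted with limma 3.58.1 in R 4.3.3, in 1 model of 6 group means (12 residual degrees of freedom), with Benjamini-Hochberg adjustment over all genes. The script was tested on simulated data.

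The thresholds, a fold change of 1.5 and an adjusted p of 0.10, are those of the study. Its local pooled error test was rewritten from its description as an alternative. The labels call the replicates biological. Same-numbered γ-radiation and mock-irradiation arrays deviated together (r = 0.65, 0.50 and 0.67), so that the number pairs them, but not all enediyne pairs did.

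All 10 genes are named, with *RNR3*. Of each further list the text names the genes called for γ-radiation, or those with the smallest p, up to 2. Genes most like *CDC9* were ranked by Pearson's r. The members and lists were chosen with earlier results of these data known. No promoter or protein sequences were used here.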

Additional observations from a re-analysis of the deposited data

Results flagged for a closer look

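*APN1* lay on opposite sides of its control with a pair of enediynes. With calicheamicin its log2 fold change was 0.05 (95% interval -0.28 to 0.38) and all 3 arrays lay above the methanol vehicle mean. With neocarzinostatin it was -0.32 (-0.64 to 0.01) and all 3 arrays lay below. Each interval includes 0, and the calicheamicin arrays overlapped the methanol arrays. The effects differ by 0.37 on the log2 scale. This difference was not tested, the doses were 1 nM calicheamicin and 4 nM neocarzinostatin, and both effects share the methanol vehicle arrays.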

How the results depend on the processing

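None of the 10 genes was called for γ-radiation or an enediyne under any alternative run. Some values short of a call changed sign. Without methanol vehicle replicate 1, *CDC9* with calicheamicin went from -0.03 to 0.13, and *OGG1* with calicheamicin from 0.28 to -0.02. Between methanol vehicle and mock irradiation, 2 of the 10 genes (*NTG2* and *CDC9*) were called with no fold threshold, against 655 of all 5656 genes. With 1 array left out, 0 to 1 of the 10 were called. In the gap filling list, *POL30* was the 1 gene called under cyclic loess (adjusted p = 0.0896 from limma) and the 1 called with a replicate block within each control family (adjusted p = 0.0141). With 1 array left out, the list gave 0 to 1 calls, *POL30* being called without γ-radiation replicate 3 (adjusted p = 0.0883). The count over all genes for γ-radiation was 51, against 17 when the compared groups were fitted alone, 129 with that block and 23 to 60 with 1 array left out. The replicate number as a block over all 18 arrays gave 50. Between methanol vehicle and mock irradiation 491 genes were called, against 89 when fitted alone, 153 with the local pooled error test, 311 with the actin covariate and 291 to 684 with 1 array left out. The causes were not tested. That contrast lies between control families and was not run with the block within them. The local pooled error test was not run for the mean enediyne effect, the difference or the slope.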
